A study of Mus musculus with 2 samples.

Results

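Intermediate filament genes were followed in 2 single-cell libraries of mouse islet cells. The set is vimentin (Vim), the keratins Krt7, Krt8, Krt18 and Krt19, peripherin (Prph), nestin (Nes) and the light and medium neurofilament subunits (Nefl and Nefm), 9 of the 46984 features counted, each found by its symbol in the deposited feature lists. The Isl1CKO library came from mice with 1 Cre allele at Neurod1 and both Isl1 alleles floxed (Neurod1 Cre/+; Isl1f/f). The control library came from mice with the same Cre allele and 1 floxed Isl1 allele (Neurod1 Cre/+; Isl1f/+), so neither genotype lacked Cre, and Neurod1 drives Cre in endocrine cells. Each library pooled 3 animals at 1 month of age, sorted for the tdTomato reporter and captured with a droplet kit that counts the 3′ ends of transcripts; actinomycin D, a blocker of transcription, was present while the islets were taken apart. ISL1 is a LIM homeodomain transcription factor of islet cells, and the series asks, by its title, how programmes of progenitor cells are kept repressed in endocrine cells.

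Intermediate filaments are rope-like cytoskeletal polymers, and the filament genes a cell uses are a long-standing mark of its lineage. Keratins assemble only as pairs of a type I protein (Krt18 or Krt19) with a type II protein (Krt7 or Krt8) and belong to epithelia, while vimentin assembles by itself and belongs to mesenchymal cells. Krt8 and Krt18 are found throughout the pancreatic epithelium, Krt7 and Krt19 are widely used as duct markers, vimentin is used as a marker of stroma and of beta cells that lose their identity, and peripherin, nestin and the neurofilament subunits are best known from neurons and neural progenitors.

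The genes lie on 5 chromosomes (GRCm38, GENCODE vM21). Vim is on chromosome 2 (13573927 to 13582826), Krt19 on chromosome 11 (100140810 to 100148665) and Nes on chromosome 3 (87971078 to 87980451). Chromosome 15 carries Prph (99055174 to 99058978), Krt7 (101411043 to 101430313) and, 23.7 kb apart and transcribed away from each other, Krt8 (101996698 to 102004482) and Krt18 (102028180 to 102032027). On chromosome 14 the annotated span of Nefm (68082590 to 68124846) contains Nefl (68083863 to 68089095) on the opposite strand. Krt7 and Krt8 also have antisense neighbours (Gm671 and Gm36026), and whether strand was used in counting is not given in the sources used here.

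The windows just before the RefSeq transcription start (bases -40 to -11, RefSeq, GRCm38.p6) are shown for the 4 abundant or changed members that have an entry, because the results turn on these genes. RefSeq places these starts further into the gene than the GENCODE spans above, so the windows of Vim, Krt7 and Krt8 lie inside those spans and that of Krt18 mostly inside. Capitals mark TATAAA, the TATA box core, searched on both strands. It was found in 2 of the 6 members with a sequence, Vim and Prph, and in 2.66% of the 32851 promoters in the table, and no match says only that these letters are not in the window.
Vim, chr2:13574271-13574300, plus strand: aacagtgtTATAAAagcagcgcccttggcg
Krt7, chr15:101412363-101412392, plus strand: tgtgtgcgctcagcctccgccccgcatgga
Krt8, chr15:102004353-102004382, minus strand: agaggcccttttccctcccctggggctggc
Krt18, chr15:102028176-102028205, plus strand: ccctacctcctcccgcggcgatataacaac

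Sequencing gave 86086781 UMIs (tags that mark single captured RNA molecules) for Isl1CKO and 48685758 for control. After filtering there were 8231 Isl1CKO and 4219 control cells, with medians of 8137 and 9015 UMIs, and 8 cell barcodes occurred in both. Leaving out cells with stromal, endothelial, immune or acinar profiles kept 8163 and 4199 endocrine cells. All 8 pan-endocrine markers, such as Chga and Neurod1, were detected in both, with summed levels of 72566 CPM in Isl1CKO and 24612 CPM in control (CPM, UMI counts relative to the summed UMIs of the cells, scaled by TMM, the trimmed mean of M values). Isl1 itself was at 243 and 306 CPM; the labels do not say which exons are floxed, and a 3′ count outside them checks nothing. The control pool is labelled as males and the Isl1CKO pool as female and male, and both held cells with Xist and no Y-linked UMI (female cells, 5348 in Isl1CKO and 971 in control) and cells with Y-linked UMIs and no Xist (male cells, 1681 and 1731). Sex and animal cannot be told apart within a pool, so values within each sex stand beside pooled ones. With 1 library per genotype there is no test between genotypes. The intervals given are at the 95% level and hold counting error alone, not the spread between animals.

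Cells were grouped by what they transcribed. A hormone at 1% or more of a cell's UMIs made it a glucagon, somatostatin, pancreatic polypeptide or insulin cell, and 2 or more such hormones a multihormone cell. Cells with no hormone at that level were split by lineage factors: alpha factor cells (a UMI of an alpha-cell transcription factor, Irx1 and Irx2 among those used), beta factor cells (Pdx1 or Nkx6-1), Hhex cells (Hhex, a factor of delta cells, without an alpha factor), mixed factor cells (alpha with beta or Hhex) and no factor cells. Beta factor cells held no alpha factor and no Hhex, whereas Hhex cells could also hold Pdx1 or Nkx6-1. In Isl1CKO the summed level of 8 beta-cell markers was 8580 CPM in Hhex and 9945 CPM in beta factor cells. That of 4 delta-cell markers, Hhex among them, was 241 and 87.3 CPM, so the Hhex group is not a separate delta lineage by these markers. The Isl1CKO library had 172 glucagon, 927 insulin, 1447 alpha factor, 2559 beta factor, 361 Hhex, 1475 mixed factor and 1208 no factor cells. The control library had 1578 glucagon, 217 somatostatin, 437 pancreatic polypeptide, 186 insulin, 1680 multihormone and 79 beta factor cells. Only glucagon, insulin and beta factor cells reached 50 cells in both libraries, so only these were compared between genotypes.

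Among the 9 members, Vim was the gene that set the Isl1CKO library apart. In endocrine cells without a UMI of Col1a1, Col1a2 or Col3a1, collagen genes of stromal cells, Vim had 2547 UMIs in 8152 Isl1CKO cells, against 99 UMIs in 4097 control cells. This was 22.7 CPM (21.8 to 23.5) in Isl1CKO and 2.29 CPM (1.86 to 2.79) in control. On the log2 scale the ratio of Isl1CKO over control was 3.29 (3.02 to 3.61). A gene was counted as measured at 5 CPM or more in 1 library and as called when the levels were 2-fold or more apart and the interval of the ratio left out 1. Of the 9 members 5 were measured over endocrine cells, 1 (Vim) was called higher and 0 were called lower, beside 6.47% higher and 6.21% lower of the 9912 genes measured. In 9 of 10 measured genes, those between the lowest and highest 5%, the ratio lay between -1.12 and 1.14. The sum over endocrine cells mixes levels per cell with the make-up of each library.

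The Vim difference was present within each sex. Male cells had 17.02 CPM in Isl1CKO and 2.10 CPM in control (log2 ratio 2.98, interval 2.55 to 3.52), and female cells 27.9 and 1.98 CPM (3.74, interval 3.17 to 4.55). In male cells Vim was again the 1 member called, beside 4.62% higher and 4.31% lower of all genes, and in female cells Vim was called higher and Nefm lower, beside 10.2% and 9.29%. The share of cells with a Vim UMI was 13.9% (13.1 to 14.6) in Isl1CKO and 1.81% (1.42 to 2.26) in control. After thinning each cell to 3000 UMIs, which left out 693 and 170 shallower cells, the shares were 6.88% and 0.968%. RNA free in the droplets held Vim at 22.3 CPM in Isl1CKO and 6.46 CPM in control. Within Isl1CKO a Vim UMI was found in 27.4% of the beta factor cells (median 7760 UMIs) and 1.04% of the alpha factor cells (median 8208 UMIs), and the part of free RNA in the difference between the libraries was not tested.

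Collagen-positive cells moved the control value of Vim more than the Isl1CKO value. With collagen-positive cells kept, 11 in Isl1CKO and 102 in control, Vim reached 23.6 CPM in Isl1CKO and 4.14 CPM in control. The log2 ratio was then 2.50 (2.30 to 2.73) for both sexes, 1.46 in male and 3.68 in female cells. The 3 control cells richest in Vim carried 81 of the 185 control UMIs, held collagen UMIs, 3 or 4 different glia genes and between 2 and 9 UMIs of Chga, and had been placed among glucagon cells. Leaving out cells with 2 or more glia genes or little Chga as well, a choice made after seeing the data, gave 3.54 (3.24 to 3.90). Leaving out every cell with any stromal, endothelial or immune UMI, 4357 in Isl1CKO and 3088 in control, gave 2.08 (1.58 to 2.72). Of these markers the immune marker C1qa had the most UMIs, 7175 in Isl1CKO and 6692 in control endocrine cells. Over endocrine cells, 7 of 10 stromal markers were detected in each library with summed levels of 2.47 CPM in Isl1CKO (Col1a1, Lum and Pdgfra at 0) and 4.23 CPM in control (Lum, Pdgfra and Col6a2 at 0). All 6 glia markers were detected, at 5.11 CPM in Isl1CKO and 13.4 CPM in control, and the part of these cells in the result beyond the values above was not tested. In the Isl1CKO beta factor cells, the group highest in Vim, 4 of 10 stromal markers were detected with a sum of 0.359 CPM.

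Within the Isl1CKO library Vim was highest in beta factor and Hhex cells. Beta factor cells had 43.4 CPM (41.3 to 45.7) and Hhex cells 39.2 CPM (34.2 to 44.7), whose intervals overlapped. No factor cells had 23.2 CPM (20.3 to 26.3) and insulin cells 18.3 CPM (16.3 to 20.4), again with touching intervals and below both groups before them. With 8 collagen-positive cells kept, no factor cells had 32.8 CPM (29.4 to 36.4). They also had the highest summed glia and stromal markers of the Isl1CKO groups, 11.4 and 10.5 CPM with these cells kept. The part of such cells in the no factor value was not tested further. Mixed factor cells had 6.47 CPM (5.49 to 7.58), glucagon cells 3.06 CPM (1.40 to 5.81) and alpha factor cells 1.16 CPM (0.73 to 1.76). Beta factor cells thus had 35.8 times the level of alpha factor cells (24.6 to 59.9), and this order was the same in male cells (38.3 and 0.75 CPM) and in female cells (50.6 and 1.52 CPM). Insulin cells differed between the sexes of the Isl1CKO library, with 24.4 CPM in female and 7.46 CPM in male cells, each scaled to its own control sum.

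Other measures moved with Vim across these Isl1CKO groups. The summed endothelial markers were at 26.4 CPM in beta factor, 25.05 CPM in Hhex, 19.7 CPM in insulin and 18.7 CPM in no factor cells, against 14.6 CPM in glucagon, 13.4 CPM in alpha factor and 13.2 CPM in mixed factor cells, with 4 to 6 of the 8 markers detected in a group. The median mitochondrial share of UMIs was 1.82% in beta factor, 1.63% in Hhex, 1.99% in no factor and 1.58% in insulin cells, against 1.22% in glucagon, 1.11% in alpha factor and 1.15% in mixed factor cells. It was 1.52% in Isl1CKO and 0.630% in control endocrine cells. The summed immune markers did not follow Vim, being highest in insulin cells at 106 CPM and at 64.3 CPM in beta factor and 68.2 CPM in glucagon cells. These sums rest on few genes. Over Isl1CKO endocrine cells C1qa gave 63.8 of the 66.1 CPM of immune markers, with C1qb at 0.125 CPM. Esam and Egfl7 gave 8.27 and 6.90 of the 20.2 CPM of endothelial markers, with Cdh5 and Emcn at 0. The part of endothelial transcripts and of RNA quality in the Vim values was not tested.

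**Figure D1:**
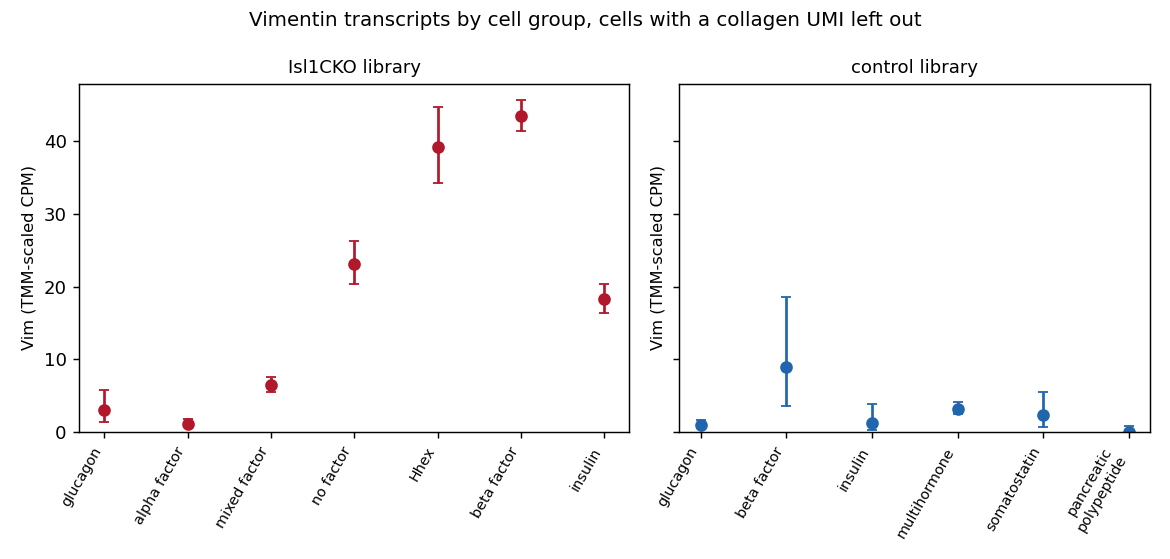
Vim level (TMM-scaled CPM, collagen-positive cells left out) in each cell group of the Isl1CKO library (left) and the control library (right), points with exact 95% Poisson intervals. The Isl1CKO beta factor and Hhex cells stood at 43.4 and 39.2 CPM, and no control group was above 9.03 CPM.

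Control cells held little Vim in any group. The 79 control beta factor cells had the most, 7 UMIs or 9.03 CPM (3.63 to 18.6), followed by multihormone cells at 3.24 CPM (2.49 to 4.16), somatostatin cells at 2.35 CPM and insulin cells at 1.32 CPM. Pancreatic polypeptide cells had 0 UMIs in 424 cells, which allows a share of cells with a UMI of up to 0.708%. Control glucagon cells had 1.05 CPM (0.60 to 1.70), or 6.09 CPM with collagen-positive cells kept. The order of beta factor over glucagon cells was thus the same in the control library, with a log2 ratio of 3.21 (1.59 to 4.47), although it rests on 7 and 16 UMIs.

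Vim was called higher in both comparable groups of the beta lineage. In insulin cells it had 323 UMIs or 18.3 CPM in Isl1CKO, against 3 UMIs or 1.32 CPM in control, which makes a log2 ratio of 3.38 (2.23 to 6.08). In beta factor cells it had 1573 UMIs or 43.4 CPM in Isl1CKO, against 7 UMIs or 9.03 CPM in control (2.07, interval 1.22 to 3.58), and 3 of the 7 lay in 4 cells with 0.5% to 1% insulin. For insulin cells the log2 ratio was 1.79 (0.40 to 5.44) in male cells, and in female cells 211 Isl1CKO UMIs stood against 0 in only 20 control cells. The insulin cells of the libraries also differed in how much insulin they held. At 1% to 5% insulin there were 461 Isl1CKO and 8 control cells, and above 5% 465 and 178. The part of this difference in the Vim ratio was not tested. The beta factor call ended when every cell with a stromal, endothelial or immune UMI was left out (0.56, interval -0.60 to 3.25), which removed 54 of the 79 control cells. In glucagon cells Vim was at 3.06 CPM in Isl1CKO and 1.05 CPM in control, below the level counted as measured, or at 3.05 and 6.09 CPM with collagen-positive cells kept, where the log2 ratio turned to -0.86.

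**Figure D2:**
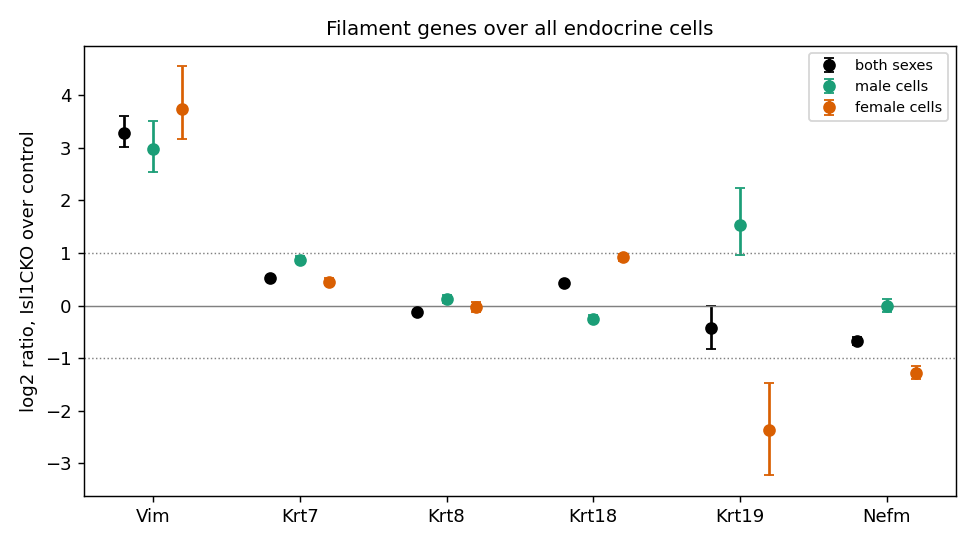
Log2 ratio of Isl1CKO over control for 6 filament genes over all endocrine cells, for both sexes together, male cells and female cells, with exact 95% intervals; dotted lines mark 2-fold. Vim stands at 3.29 and is past 2-fold in both sexes, whereas Krt18, Nefm and Krt19 differ in sign or size between male and female cells. Krt19 is below the level counted as measured.

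Vim was not simply highest where insulin was lowest. Isl1CKO insulin and beta factor cells were split by the share of insulin in their UMIs, and Vim was taken as CPM of the UMIs that were not insulin, a description added after seeing the data. Cells with less than 0.02% insulin had 50.2 (43.6 to 57.5), and the level was higher at each step up to 93.5 (82.2 to 106.0) at 0.1% to 0.2% insulin. It was then 89.0 at 0.2% to 0.5%, 70.9 at 0.5% to 1%, 46.2 (40.7 to 52.4) at 1% to 5% and 12.4 (9.75 to 15.6) above 5%. Median depth was 6534.5 UMIs below 0.02% insulin, 8614 at 0.1% to 0.2% and 14645 above 5%. The lowest bins therefore differ by few insulin UMIs per cell, and the part of free RNA and depth in the rise was not tested. The low level at high insulin was shared by both sexes, 14.4 in female and 5.23 in male cells above 5%, while the peak lay at 0.02% to 0.05% insulin in male cells and at 0.1% to 0.2% in female cells (100.1). The 178 control cells above 5% insulin had 2 Vim UMIs, or 1.49 (0.18 to 5.40). Within each sex the intervals above 5% overlapped between the libraries. Male cells were at 5.23 (2.61 to 9.37) in Isl1CKO and 2.64 (0.32 to 9.55) in control. Female cells were at 14.4 (10.3 to 19.5) in Isl1CKO and 0 (up to 22.6) in 19 control cells.

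**Figure D3:**
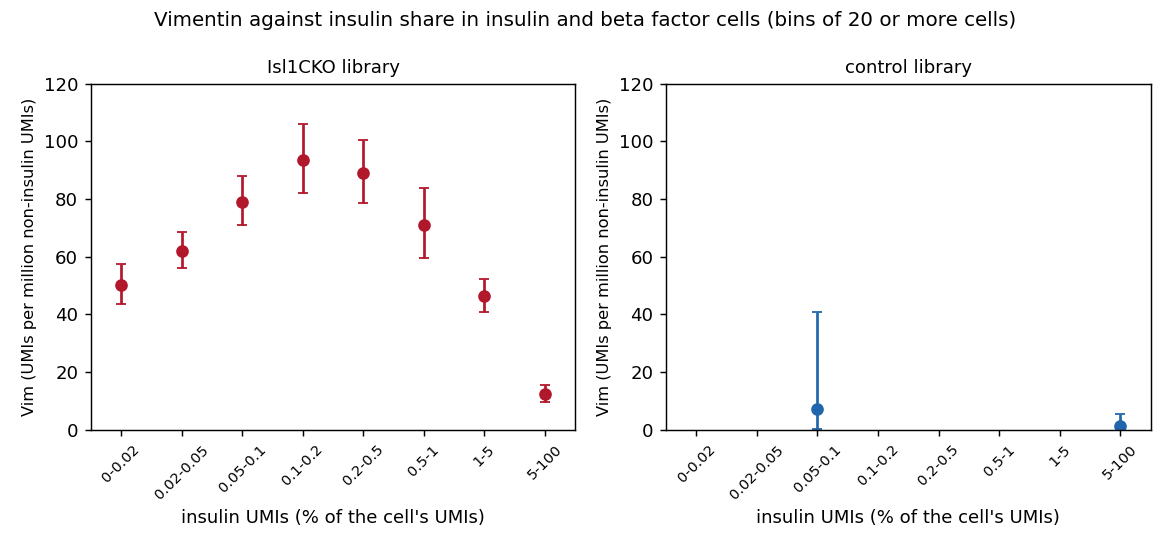
Vim level (unscaled CPM of the non-insulin UMIs) against the insulin share of a cell's UMIs in insulin and beta factor cells of the Isl1CKO library (left) and the control library (right), with exact 95% Poisson intervals, for bins of 20 or more cells. In Isl1CKO the level is 93.5 at 0.1% to 0.2% insulin and 12.4 above 5%.

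Keratin UMIs were also found in cells with a Vim UMI. In Isl1CKO the RNA free in the droplets held Krt18 at 305 CPM, Krt7 at 261 CPM and Krt8 at 127 CPM. Endocrine cells had 249, 235 and 108 CPM of these genes, and the part of free RNA in the shares below was not tested. Among Isl1CKO beta factor cells thinned to 3000 UMIs, Krt18 was found in 76.9% (72.0 to 81.3) of the 329 cells with a Vim UMI and in 68.1% (66.1 to 70.1) of the 2077 without. Krt7 was found in 69.3% (64.01 to 74.2) of the cells with Vim and 61.8% (59.7 to 63.9) of those without, and Krt8 in 34.95% (29.8 to 40.4) and 41.1% (38.9 to 43.2). In this group Krt18 and Krt7 were found more often beside Vim, with intervals apart, and the Krt8 intervals overlapped. In Hhex, no factor and insulin cells, with 41 to 59 cells with Vim each, the intervals overlapped for all 3 keratins, and Krt8 was in 56.1% of Hhex cells with Vim and 40.6% of those without. Vim was uneven across cells: 1% of the Isl1CKO cells held 30.2% of its UMIs, against 17.0% for Nefm, the member nearest to it in UMIs, and 5.24% to 6.72% for the far more abundant Krt18, Krt8 and Krt7; this share also rises as counts fall.

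The simple-epithelial keratins Krt7, Krt8 and Krt18 were abundant in both libraries and none was called over endocrine cells. Krt18, the usual partner of Krt8, was at 249 CPM (246 to 252) in Isl1CKO and 186 CPM (182 to 190.2) in control (log2 ratio 0.42, interval 0.38 to 0.46). Krt7 was at 235 CPM (232 to 238) in Isl1CKO and 164 CPM (160.1 to 168) in control, a log2 ratio of 0.52 (0.48 to 0.56). Krt8 was at 108 CPM in Isl1CKO and 117 CPM in control, a ratio of -0.12 (-0.17 to -0.08), whose sign turned with unscaled CPM (0.42) and in male cells (0.13). Leaving out the scaling moved the median of all genes by 0.54, so ratios of this size follow the scaling. Without thinning a UMI was found in 78.5% of Isl1CKO and 73.4% of control endocrine cells for Krt7, in 85.2% and 75.4% for Krt18, and in 65.7% and 63.3% for Krt8. Non-endocrine cells, few and partly acinar, had a Krt7, Krt18 or Krt8 UMI in 47.1%, 63.2% and 48.5% of the 68 Isl1CKO cells and in 4, 6 and 6 of the 20 control cells, at median depths of 9820 and 4248.5 UMIs against 8136 and 9025 in endocrine cells.

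Krt18 differed between male and female cells in the Isl1CKO library. In unscaled CPM Krt18 was at 428 in female and 225 in male Isl1CKO endocrine cells, a log2 ratio of female over male of 0.93 (0.88 to 0.97). Every one of the 7 Isl1CKO groups went this way, from 0.45 (0.14 to 0.80) in glucagon cells to 1.08 (0.98 to 1.19) in insulin cells. In control endocrine cells it was at 169 in female and 188 in male cells, a ratio of -0.16 (-0.24 to -0.07). Set against control cells of the same sex, Krt18 stood at 0.91 on the log2 scale (0.84 to 0.99) in female and -0.25 (-0.31 to -0.18) in male cells, and in insulin cells at 0.94 and -0.24. Krt7 ran the other way in the Isl1CKO library, at 302 in female and 415 in male cells (-0.46, interval -0.50 to -0.42), with control cells at 164 and 159. Isl1CKO insulin cells were an exception, with Krt7 at 403 and 406 (-0.01, interval -0.10 to 0.08). The labels name no animal, so a sex is here also a set of at most 2 animals.

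**Figure D4:**
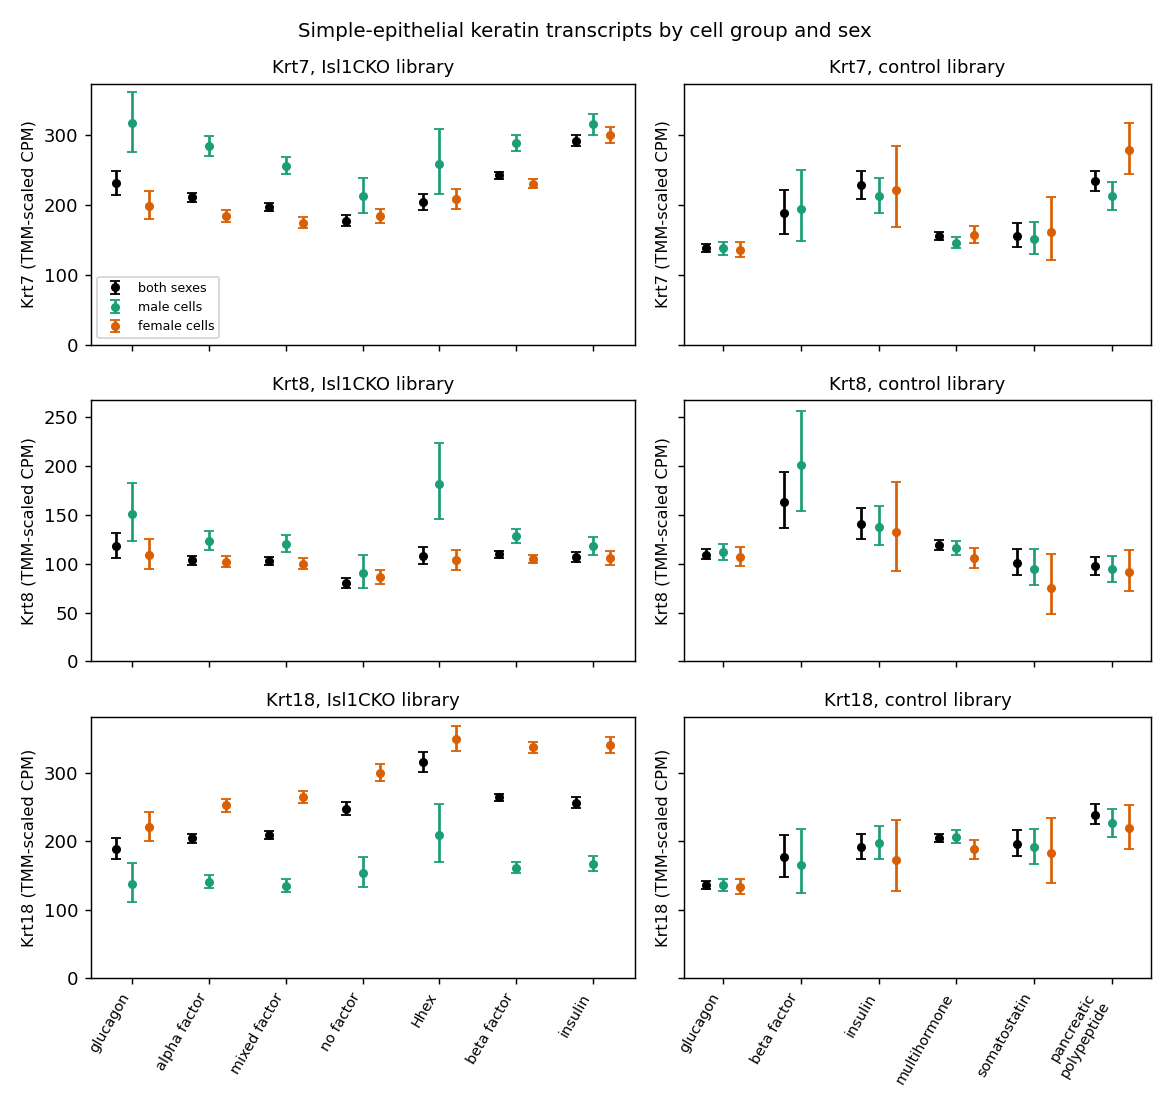
Krt7, Krt8 and Krt18 levels (TMM-scaled CPM, each sex scaled to its own control sum) in the cell groups of the Isl1CKO library (left) and the control library (right), for both sexes together, male and female cells, with exact 95% Poisson intervals. Krt18 is higher in female than male cells in all 7 Isl1CKO groups, for example 337 and 162 CPM in beta factor cells, and in none of the control groups are the sexes apart in this direction.

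The balance of the Krt8 and Krt18 pair differed by sex in the same way. Krt8 made up 30.2% (29.8 to 30.7) of the summed Krt8 and Krt18 UMIs in Isl1CKO and 38.7% (37.9 to 39.5) in control endocrine cells, a share that does not depend on the scaling. In female cells it was 25.1% in Isl1CKO and 39.1% in control, and in male cells 44.7% and 38.3%. Among the groups compared, the Krt8 share was 38.5% in Isl1CKO and 44.6% in control glucagon cells, 29.4% and 42.3% in insulin cells, and 29.3% and 48.1% in beta factor cells. Male cells did not share all of these differences, with 41.4% in Isl1CKO and 41.2% in control insulin cells, 52.2% and 45.2% in glucagon cells, and 44.3% and 54.8% in beta factor cells. Female cells had 23.7% in Isl1CKO and 43.4% in control insulin cells, and 33.1% and 44.5% in glucagon cells, so the pooled shares also carry the different sex make-up of the pools.

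Across cell groups the 3 keratins varied far less than Vim. In Isl1CKO Krt7 ranged between 177 CPM in no factor and 292 CPM in insulin cells, Krt18 between 189 CPM in glucagon and 316 CPM in Hhex cells, and Krt8 between 80.4 CPM in no factor and 118 CPM in glucagon cells. In control Krt7 ranged between 138 CPM in glucagon and 234 CPM in pancreatic polypeptide cells, Krt18 between 136 and 238.9 CPM in the same groups, and Krt8 between 97.5 CPM in pancreatic polypeptide and 164 CPM in beta factor cells. Without scaling control insulin cells had 140 CPM of Krt7 beside 145 CPM in control glucagon cells, so the order of these 2 groups follows the scaling. In glucagon cells 0 of the 4 measured members were called, beside 9.63% higher and 9.71% lower of all genes; Krt7 was at 231 CPM in Isl1CKO and 138 CPM in control (0.74, interval 0.62 to 0.87), and its ratio of 1.21 in male cells was called higher. In beta factor cells Vim was the 1 call among 5 measured members, beside 6.37% higher and 5.58% lower of all genes; Krt8 was at 110 CPM in Isl1CKO and 164 CPM in control (-0.59, interval -0.83 to -0.31).

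Krt19, the duct keratin, was called lower in Isl1CKO insulin cells. It had 25 UMIs or 1.41 CPM (0.92 to 2.09) in 927 Isl1CKO insulin cells, against 31 UMIs or 13.6 CPM (9.24 to 19.3) in 186 control insulin cells (log2 ratio -3.26, interval -4.09 to -2.46). Male cells gave -2.52 (-3.75 to -1.40) and female cells, with only 5 control UMIs, -4.26 (-5.88 to -2.22). Together with Vim it made 2 calls among the 6 measured members in insulin cells, 1 in each direction, beside 8.65% higher and 7.29% lower of all genes. The control UMIs were spread over 17 cells with at most 5 in a cell. Of the 6 duct markers other than keratins, 6 were detected in Isl1CKO insulin cells with a summed level of 98.8 CPM and 5 in control insulin cells (Cftr at 0) with 287 CPM, and their part in the result was not tested.

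Over all endocrine cells Krt19 was scarce, at 1.33 CPM in Isl1CKO and 1.79 CPM in control. The sexes went apart below the level counted as measured. Male cells had 4.10 CPM in Isl1CKO and 1.38 CPM in control (log2 ratio 1.53, interval 0.96 to 2.23). Female cells had 0.43 and 2.20 CPM (-2.38, interval -3.23 to -1.48). In Isl1CKO 2 beta factor cells with 56 and 32 UMIs, and none of the 6 duct markers, carried most of its 150 UMIs, and the cell with the next highest count, 8 UMIs, held 97 UMIs of duct markers and 3 of Chga. Control insulin cells stood above every other control group of 50 or more cells with an interval apart, except beta factor cells (3 UMIs, 3.86 CPM, 0.80 to 11.3). Glucagon cells had 0 UMIs in Isl1CKO and 2 in control.

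Nefm, the medium neurofilament subunit, was low in insulin cells of both libraries and in Isl1CKO beta factor cells. In Isl1CKO it was at 58.3 CPM (55.3 to 61.5) in mixed factor, 57.7 CPM (49.4 to 67.1) in glucagon and 52.7 CPM (49.5 to 56.1) in alpha factor cells, which had overlapping or nearly touching intervals. The other groups were well below, at 21.3 CPM in no factor, 16.5 CPM in beta factor, 16.4 CPM in insulin and 14.7 CPM in Hhex cells. Beta factor over alpha factor cells gave a log2 ratio of -1.67 (-1.82 to -1.53), with the same sign in unscaled CPM (-1.41). In control Nefm was at 62.3 CPM (58.5 to 66.3) in glucagon, 61.1 CPM in somatostatin, 51.1 CPM in multihormone, 46.5 CPM in pancreatic polypeptide, 23.2 CPM in beta factor and 11.8 CPM (7.81 to 17.2) in insulin cells. Insulin over glucagon cells gave a ratio of -2.34 (-3.00 to -1.85) in control. The level of control beta factor cells rests on 18 UMIs and on the scaling. Unscaled they were at 43.0 CPM, beside 35.9 CPM in pancreatic polypeptide cells, and their ratio over glucagon cells went from -1.35 to -0.53. The intervals of somatostatin cells (51.1 to 72.4) and glucagon cells overlapped in the control, and in Isl1CKO the Hhex cells were as low as the insulin and beta factor cells within their intervals.

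**Figure D5:**
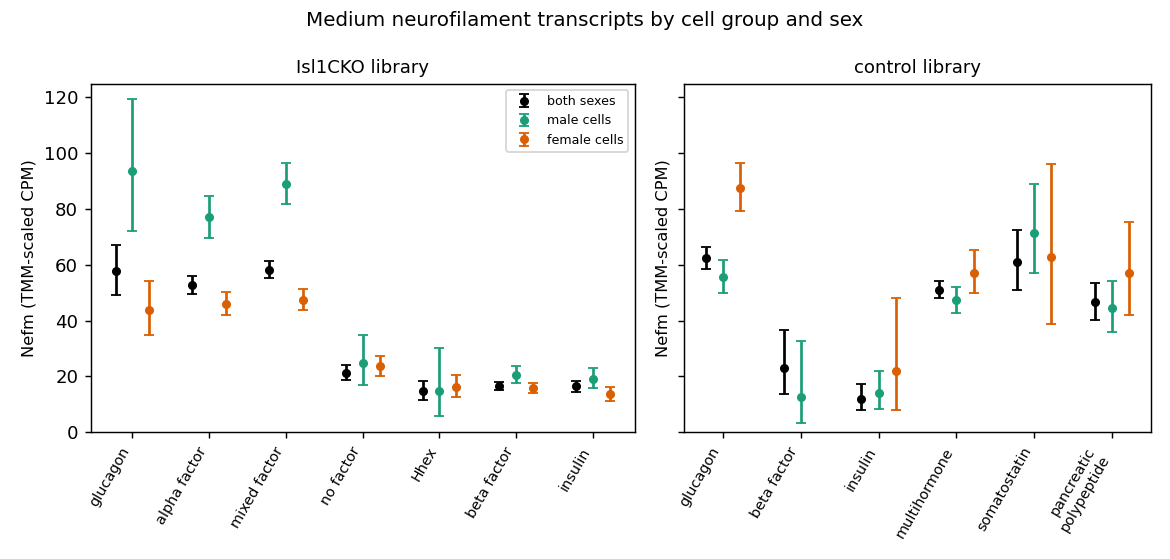
Nefm level (TMM-scaled CPM, each sex scaled to its own control sum) in the cell groups of the Isl1CKO library (left) and the control library (right), for both sexes together, male and female cells, with exact 95% Poisson intervals. Glucagon cells stand at 57.7 CPM in Isl1CKO and 62.3 CPM in control and insulin cells at 16.4 and 11.8 CPM, and among glucagon cells male cells are higher in Isl1CKO and female cells in control.

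Between genotypes Nefm gave no call with both sexes together. It was at 33.5 CPM in Isl1CKO and 53.4 CPM in control endocrine cells, a log2 ratio of -0.67 (-0.75 to -0.60). In glucagon cells the ratio was -0.10 (-0.35 to 0.12), in insulin cells 0.42 (-0.10 to 1.10) and in beta factor cells -0.56 (-1.16 to 0.28), intervals that all include 0. The sexes went apart: over endocrine cells the ratio was -1.28 (-1.40 to -1.15) and called lower in female cells, where 9.29% of genes were lower, and 0.00 (-0.12 to 0.12) in male cells. In glucagon cells it was -0.99 (-1.36 to -0.66) in female and 0.77 (0.35 to 1.14) in male cells.

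Peripherin, nestin and the light neurofilament subunit were at or near the limit of detection. Prph had 3 UMIs in 8163 Isl1CKO and 4 in 4199 control endocrine cells, Nes 3 and 1, and Nefl 3 and 3. A count of 3 corresponds to 0.0267 CPM in Isl1CKO and 0.0672 CPM in control, so no fold is given for these genes. Nefl, which lies inside the Nefm span, thus had almost no UMIs where Nefm had 3763 and 2384. How reads in the shared span were counted is not given, so these counts do not show whether Nefl was silent.

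Other filament genes and genes of the same structures were read as 6 lists, given as counts beside all genes. These lists were chosen with earlier results known. The first list held other intermediate filament genes, the lamins included, and also the nesprin genes Syne1 and Syne2, whose products link the nuclear envelope to the cytoskeleton and are not filament proteins. Of its 9 measured genes 0 were called higher and 2 lower, and the median log2 ratio of -0.42 was that of Syne1, against 641 higher and 616 lower of 9912 and a median of 0.04 over all genes, or 2158 higher and 282 lower of all genes with unscaled CPM. Krt1, a keratin of stratified epithelium, was at 8.58 CPM in Isl1CKO and 24.9 CPM in control (-1.54), and Krt222 at 3.03 and 6.30 CPM (-1.05), and both calls ended with unscaled CPM (-0.99 and -0.51). The other 7 were not called: Lmna, which encodes the lamins A and C of the nuclear envelope, had 0.91 (69.8 and 37.2 CPM), alpha-internexin (Ina), a partner of neurofilaments, 0.29, the nesprin genes Syne2 and Syne1 0.00 and -0.42, the lamin genes Lmnb1 and Lmnb2 -0.06 and -0.67, and Krt10 -0.66. The median of this list turned to 0.12 with unscaled CPM.

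Genes that anchor keratins and genes of epithelial junctions were counted beside 6.47% higher and 6.21% lower of all 9912 genes. Of 12 measured plakin and desmosome genes 0 were higher and 1 lower (median 0.40), desmoplakin (Dsp), which ties keratins to desmosomes, at 12.8 CPM in Isl1CKO and 28.3 CPM in control (-1.14). With unscaled CPM 3 were higher and 0 lower (median 0.94), and the Dsp call ended (-0.60). All genes then had 2158 higher and 282 lower of 9912 (median 0.59). Of 13 epithelial junction genes the tight junction gene Ocln was higher at 19.5 and 6.81 CPM (1.51), and the claudin Cldn6 lower with 956 and 1494 UMIs (-1.98), with a median of 0.09 that turned to -0.23 in male cells. Cdh1, the epithelial cadherin, was at 49.1 CPM in Isl1CKO and 46.1 CPM in control (0.09).

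The list of other mesenchymal genes held more lower than higher calls, beside 6.47% higher and 6.21% lower of all genes. Of its 7 measured members 0 were higher and 4 lower (median -1.27, male -0.65, female -1.25), or 2 higher and 3 lower with unscaled CPM. The 4 were Sparc, a matrix protein (-1.92), Lgals1, a galectin (-1.69), Cd44, a hyaluronan receptor (-1.67), and Anxa5, an annexin (-1.27), and in male cells 2 members were called higher and 2 lower. Members below the level counted as measured, chosen after their values were seen, went both ways. Tgfbi had 66 UMIs in Isl1CKO and 0 in control, and the transcription factor gene Snai1 had 74 and 2 UMIs (3.31, interval 1.97 to 6.95). Zeb2, another such factor, had 230 and 34 UMIs (1.39, interval 0.90 to 1.99), with 0.34 in male and 2.21 in female cells. Lower in Isl1CKO were Timp1 with 42 and 78 UMIs (-2.21, interval -2.80 to -1.67) and Anxa2 with 61 and 108 UMIs (-2.15, interval -2.63 to -1.69). Of 12 measured neuronal cytoskeleton genes 0 were higher and 2 lower (median -0.29, or 0.25 with unscaled CPM), the tubulin-binding Stmn1 (-2.04) and the growth cone gene Gap43 (-7.41, 38 and 2629 UMIs). Of 8 measured duct genes 0 were higher and 4 lower (median -1.07), the factor Sox9 (-4.96), the membrane protein Tspan8 (-1.68), Ambp (-1.64) and osteopontin (Spp1, -1.19).

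The genes whose levels ran most like each abundant member were ranked over the 13 sums of 50 or more cells (7 Isl1CKO and 6 control groups) by Pearson's r of log2(CPM + 1), among 6299 genes with at least 20 CPM in 1 sum. These sums share 2 libraries and their free RNA, so r is a description. Closest to Vim were Adrbk2, a kinase of activated receptors (0.94), the protein kinase C genes Prkce and Prkcb (0.93 and 0.92), Dusp6, a phosphatase of the ERK kinases (0.92), and Kat6b, a histone acetyltransferase (0.92). Closest to Krt18 were Rgs2, a regulator of G protein signalling (0.95), Tspan15, Peli1, Yeats4 and Cobll1 (0.93 to 0.91). Krt7 ran most like P4hb, a protein disulfide isomerase of the endoplasmic reticulum (0.95), then Pet100, Sar1a, Saraf and Tcta (0.89 to 0.86). Krt8 ran most like Cib1 (0.92), with Pafah1b2, Hsdl2 and Gspt1 also among the closest (0.88 to 0.87). Nefm ran most like Tfpi, an inhibitor of coagulation (0.95), then Appl1, 5330417C22Rik, Faap20 and Aplp2 (0.94 to 0.92). Among the members themselves r was highest between Krt7 and Krt18 (0.55) and between Vim and Krt18 (0.49), and between the usual partners Krt8 and Krt18 it was -0.40.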

How the data were processed

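Islet cells of 1-month mice were profiled in 1 library per genotype, each pooling 3 animals. Deposited were unfiltered matrices of UMI counts per gene and barcode, made by the authors with STAR 2.7.3a (STARsolo) on GRCm38.p6, with Seurat 4.3.0.1 also named, per the submitters' processing notes. Cells were kept at 1000 UMIs, 500 genes and at most 15% mitochondrial UMIs; cells with 3 stromal, endothelial or immune genes or 5% acinar UMIs were set aside as non-endocrine. No doublets were removed; Scrublet's automatic limit marked 0 Isl1CKO and 249 control cells and was not used. Counts were summed per library and cell group and scaled by TMM (edgeR 4.0.16, R 4.3.3) to CPM with exact Poisson intervals. Log2 ratios had 1 added to each summed count. Shares were compared after thinning to 3000 UMIs, with exact binomial intervals. Python 3.11.15, scanpy 1.11.5, scipy 1.17.1 and matplotlib 3.10.9 were used, and DESeq2 1.42.0 for alternative size factors. Steps were tested on simulated data. The members and lists were chosen with earlier results of these data known. List genes were named when called, up to the 3 largest and 3 smallest ratios per list, as were the 5 genes most like each member; others named were chosen after their values were seen. Some items that these rules use or name are not reported here. Each genotype is 1 library, so neither has a replicate spread. Alternatives covered scaling, depth, hormone limits, factor limits, cell exclusions, doublets and sex.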

Additional observations from a re-analysis of the deposited data

Results flagged for a closer look

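These 3 results had opposite signs in male and female cells; the difference between the sexes was not tested. Krt18 over all endocrine cells had a log2 ratio of Isl1CKO over control of -0.25 in male and 0.91 in female cells. Krt18 in insulin cells had -0.24 in male and 0.94 in female cells. Nefm in glucagon cells had 0.77 in male cells, from 93.6 CPM in Isl1CKO and 55.5 CPM in control, and -0.99 in female cells, from 43.7 and 87.5 CPM. The male Isl1CKO glucagon cells numbered 30. Sex and animal cannot be told apart in these pools.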

How the results depend on the processing

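Over all endocrine, insulin and beta factor cells the Vim ratio was positive under 38 of 38 alternatives; in glucagon cells, not counted there, it was 1.61 with collagen-positive cells left out, and -0.86, or -2.22 and called lower in male cells, with them kept. Of 238 alternative values for single genes 171 stayed close to the reported value, 67 moved and 0 called values changed sign. With unscaled CPM 2 members were called higher over endocrine cells (Vim and Krt7, against 1) and 4 in insulin cells (Vim, Krt7, Krt18 and Nefm, against 1); that choice moved the median of all genes by 0.54 and 1.15 on the log2 scale. In female cells alone 1 member was lower over endocrine cells (Nefm, against 0), and in male cells alone 1 was higher in glucagon cells (Krt7, against 0). With every cell holding a stromal, endothelial or immune UMI left out, 2 were higher in insulin cells (Vim and Krt18), and in beta factor cells 0 were higher (against 1) and 1 lower (Nefm, against 0). Over the 6 lists 10 genes were called higher with unscaled CPM, 4 in male and 4 in female cells, against 1. With unscaled CPM 9 were called lower, against 14. Of all 9912 genes 2158 were higher and 282 lower with unscaled CPM, against 641 and 616. In male cells 4.62% and in female cells 10.2% of all genes were higher. Such shares are not given here for glucagon cells of 1 sex or for the marker exclusion. The cause of these changes was not tested. No paired analysis was possible because each genotype has 1 library. Depth limits Prph, Nes, Nefl and Krt19, and the 79 beta factor and 186 insulin cells of the control limit every ratio within those groups.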

Other observations

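Krt20, a keratin of gut epithelium, was chosen after its values were seen and lies below the level counted as measured. It had 279 UMIs or 2.48 CPM in Isl1CKO endocrine cells, against 3 UMIs or 0.0672 CPM in control. The log2 ratio was 4.80 (3.64 to 7.49), larger than the 3.29 of Vim though from far fewer UMIs. Krt20 stood at 4.50 for male cells and 4.62 for female cells, each resting on at most 3 control UMIs. Within Isl1CKO it was highest in alpha factor cells, at 6.55 CPM, and was at 3.39 CPM in glucagon, 1.66 CPM in beta factor and 0.283 CPM in insulin cells. All 3 control UMIs were in multihormone cells. Nefh, the heavy neurofilament subunit, was also chosen after its values were seen and is below the level counted as measured. It had 188 UMIs or 1.67 CPM in Isl1CKO and 54 UMIs or 1.21 CPM in control, a log2 ratio of 0.45 (0.02 to 0.93). Within Isl1CKO it was at 3.34 CPM in insulin and 0.158 CPM in alpha factor cells, the opposite side from Nefm. Lmna, not called over endocrine cells (0.91), was at 54.0 to 82.4 CPM over the Isl1CKO groups and 33.8 to 42.6 CPM over the control groups. These values were apart, but not all of their intervals were. Isl1CKO insulin cells had 50.6 to 57.5 CPM, against 34.5 to 51.9 CPM in control insulin and 26.1 to 55.1 CPM in control beta factor cells. How many other genes have group values apart in this way was not counted.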
